A study of Homo sapiens with 72 samples.

Results

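The ZFP36 family comprises ZFP36, ZFP36L1 and ZFP36L2, and its members were taken by name, as 3 of the 44659 gene rows of the count table. All 3 had counts at 0 h in every library. They were followed by sequencing RNA from the cytoplasm of A375, an established line of human melanoma cells, with QuantSeq, which sequences the 3′ end of polyadenylated transcripts. The 72 libraries formed 24 groups of 3 replicates. In the siRNA experiment, cells were transfected for 42 h with 2 pooled siRNAs against CTU2 (siCTU2), a subunit of an enzyme that thiolates the wobble uridine of certain tRNAs, or with the control siRNA siGL2. The line was grown in medium supplemented with 2 mM glutamine. In the medium experiment, cells were kept for 18 h in medium lacking glutamine (mQ) or in the control medium (pQ). All cells were then exposed to 25 µM triptolide, an inhibitor of transcription, either by itself (T arm) or with cycloheximide at 100 µg/ml, which blocks translation (TCHX arm). RNA was taken at 0, 3 and 5 h. Every group therefore carried triptolide, the 0 h cells having been harvested at once after it was added, and the whole study rests on 1 cell line. Nothing in the labels says whether replicates were separate cultures, so the p-values measure only the spread between these libraries, which may be technical.

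ZFP36 proteins carry tandem zinc fingers that bind AU-rich elements (AREs) in the 3′ untranslated region (3′UTR) of an mRNA. They then recruit the CCR4-NOT deadenylase and the decapping machinery, so that bound mRNAs, among them many coding for cytokines, growth regulators and transcription factors, are short-lived. The family's own mRNAs hold AREs and are known to decay quickly, and kinases of the p38 and AKT pathways inhibit the proteins through phosphorylation and 14-3-3 binding.

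The 3 genes lie on different chromosomes of the human genome (hg38, GENCODE 44), each has 2 exons in its canonical transcript, and each 3′UTR lies in one exon. ZFP36 is at 39406847 to 39409412 on chromosome 19, plus strand, with a 3′UTR of 708 bases. ZFP36L1 is at 68787660 to 68796253 on chromosome 14, minus strand, with a 3′UTR of 1871 bases. ZFP36L2 is at 43222402 to 43226606 on chromosome 2, minus strand, with a 3′UTR of 1917 bases, of which 826 bases are overlapped on the opposite strand by a long noncoding RNA gene. Whether the counting used strand is not given in the sources used here, so reads of that transcript could not be told apart from those of ZFP36L2.

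The core ARE motif AUUUA occurred 5 times in the 3′UTR of ZFP36, 8 times in that of ZFP36L1 and 5 times in that of ZFP36L2, counting overlapping matches on the transcribed strand. The longer UAUUUAU, which holds the core, occurred 3 times in each. The nonamer UUAUUUAUU, the preferred site of these zinc fingers, occurred once in each, against 8.44% of 19538 canonical 3′UTRs that held it at all. Among 3′UTRs with 80% to 120% of the same length the nonamer was present in 5.43%, 9.33% and 8.92% for ZFP36, ZFP36L1 and ZFP36L2, respectively. At least as many AUUUA were found in 5.73%, 14.3% and 39.2% of these 3′UTRs, in the same order. For UAUUUAU these shares were 1.41%, 5.1% and 4.58%. The core motif was present in 67.5% of all 3′UTRs. The site of each member is shown because the AU-rich stretch is what the 3 transcripts share; the nonamer is in capitals, read 5′ to 3′ on the gene's strand. They lie at chr19:39409196-39409224, chr14:68788077-68788105 and chr2:43223448-43223476, in the 3′UTR in each case.
ZFP36: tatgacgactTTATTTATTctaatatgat
ZFP36L1: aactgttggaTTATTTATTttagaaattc
ZFP36L2: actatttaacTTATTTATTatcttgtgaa
A match is a description of the letters and not a measured binding site.

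Because CTU2 was knocked down with siRNAs, matches to their seeds were also counted. The sense strands are shown 5′ to 3′, and the capitals mark the bases that pair with the seed of the guide.
siCTU2#1: cuaucaagcucAUGACCAa
siCTU2#2: gcgugaacaugAAGGACUu
The site of the first occurred once in the 3′UTR of ZFP36L2 and in 9.13% of all 3′UTRs, and was not found in those of ZFP36 and ZFP36L1. The site of the second, found in 11.7% of all 3′UTRs, was in none of the 3.

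Libraries held 5987692 to 15534331 counts. CTU2 was at 0.133 to 2.95 CPM (a gene's counts divided by the library total and scaled) in 17 siCTU2 libraries and at 13 to 38.7 CPM in the 54 libraries of the other conditions, but at 10.4 CPM in the library labelled siCTU2 TCHX 5 h of replicate 3. That library and those of mQ T 5 h and pQ TCHX 0 h of the same replicate had 19896 to 20364 genes with a count, against 15507 to 17495 in the other 69. In these 3 libraries the leukocyte markers PTPRC and CD3E were at 31.1 to 32.6 CPM, against at most 0.76 CPM elsewhere. The other leukocyte marker, LYZ, was not raised, at 0.177 to 0.467 CPM against 0 to 1.38 CPM. The 9 markers of other cell types summed to 66.4 to 68.1 CPM, mostly from PTPRC and CD3E, against 0 to 3.28 CPM. The melanoma lineage markers SOX10, MITF, S100B and CSPG4 were present in all 72 libraries, whereas MLANA, TYR, TYRP1 and PRAME were at most at 2.07 CPM. They are called the libraries with extra genes below. Tests of the members that include any of them are given with and without them where the call moved.

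The first question was how the 2 perturbations changed the members before decay. Knockdown of CTU2 lowered ZFP36L1 and ZFP36L2, and no change was detectable in ZFP36. At 0 h in the T arm, ZFP36L1 was at 115, 114 and 128 CPM in the siCTU2 replicates and at 230, 244 and 256 CPM in the siGL2 replicates. The groups were far apart, and ZFP36L1 was 2.05-fold lower in siCTU2 (log2 change -1.03, SE 0.0786, edgeR quasi-likelihood test, adjusted p = 1.2e-08). ZFP36L2 was at 119, 127 and 95.3 CPM in siCTU2 and at 150, 163 and 141 CPM in siGL2. Again the groups did not overlap, and ZFP36L2 was 1.34-fold lower (log2 change -0.42, SE 0.0984, adjusted p = 0.00265 by edgeR). Of the 12292 genes tested, 36% were called in this comparison, so that a call was not rare, and ZFP36L1 lay at the percentile 5.25 and ZFP36L2 at the percentile 19.2 of all changes. The TCHX arm provided another 6 libraries harvested at 0 h. There the log2 changes were -1.02 for ZFP36L1 (adjusted p = 7.46e-09) and -0.70 for ZFP36L2 (adjusted p = 7.4e-06, edgeR), in a fit that called 4651 of 12507 genes. In bulk RNA, a change in the make-up of the cells and a change in RNA per cell cannot be told apart. The summed level of the 12 melanoma lineage markers was also lower in siCTU2 (961 to 1219 CPM) than in siGL2 (1351 to 1584 CPM), and that of the 9 markers of other cell types was 0.855 to 1.90 against 0.494 to 0.678 CPM. Their part in the fall of ZFP36L1 and ZFP36L2 was not tested.

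Glutamine depletion moved the same 2 members in opposite directions. ZFP36L1 was at 291, 262 and 423 CPM in mQ and at 182, 197 and 216 CPM in pQ at 0 h in the T arm. Every mQ library lay above every pQ library, and ZFP36L1 was 1.7-fold higher (log2 change 0.77, SE 0.159, edgeR adjusted p = 0.00549). ZFP36L2 was at 79.7, 55.4 and 95.5 CPM in mQ and at 153, 153 and 152 CPM in pQ. All mQ libraries were below the pQ libraries, which hardly differed from one another, and ZFP36L2 was 1.92-fold lower (log2 change -0.94, SE 0.161, edgeR adjusted p = 0.00205). In this comparison 24.8% of 12374 genes were called, and the changes of ZFP36L1 and ZFP36L2 were at the percentiles 91.8 and 4.43. Without replicate 1, neither call held (adjusted p = 0.0849 and 0.0695), while the changes stayed at 0.80 and -0.95, and 501 of 12609 genes were called in all. The summed level of the 12 melanoma lineage markers overlapped between mQ (1117 to 1337 CPM) and pQ (1279 to 1528 CPM), and that of the 9 markers of other cell types was 2.57 to 3.09 against 0.243 to 2.47 CPM.

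In the TCHX arm at 0 h, ZFP36L1 was at 315, 318 and 379 CPM in mQ and at 192, 188 and 135 CPM in pQ, and the log2 change was 1.00 (edgeR adjusted p = 0.00347), in a fit that called 810 of 12521 genes. ZFP36L2 was at 96.3, 109 and 113 CPM in mQ and at 145, 178 and 82.8 CPM in pQ. The last pQ value, which lay below all mQ values, came from a library with extra genes. The log2 change of ZFP36L2 was -0.32 with that library (edgeR adjusted p = 0.404) and -0.58 without it (adjusted p = 0.000429), so that the fall was called in the TCHX arm only when it was left out. The fit without that library was chosen after seeing the data and called 2555 of 12715 genes.

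**Figure D1:**
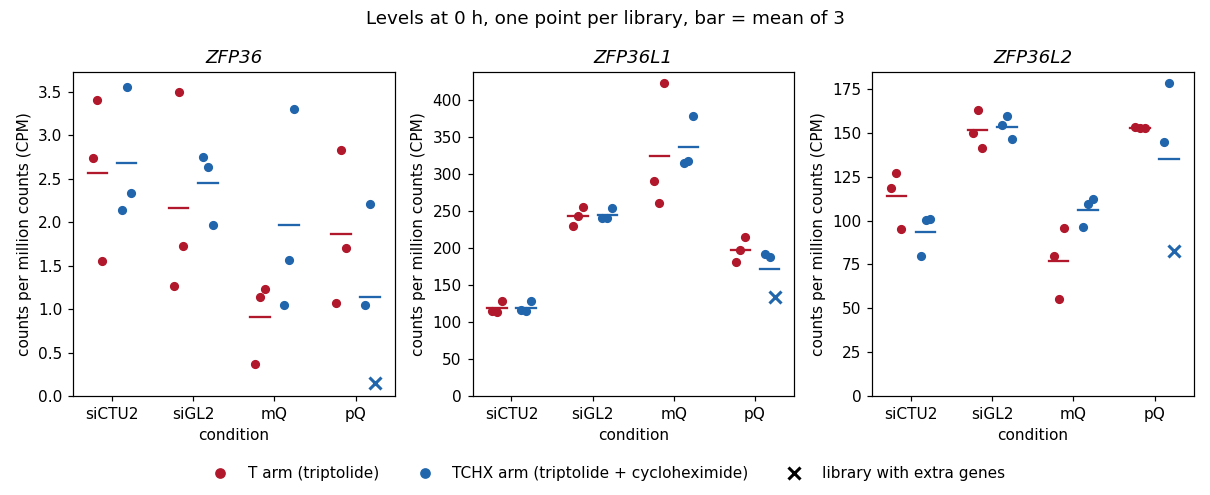
Level of each member at 0 h in CPM (vertical axis, from 0) in the 4 conditions, with 1 point per library, the T arm in red, the TCHX arm in blue, and the mean of 3 as a bar; a cross marks the library with extra genes. ZFP36L1 runs from 114 to 128 CPM in the T arm of siCTU2 up to 262 to 423 CPM in mQ, the mean of ZFP36L2 is lowest in mQ in the T arm but in siCTU2 in the TCHX arm (80 to 101 CPM, overlapping 96.3 to 113 CPM in mQ), and ZFP36 stays below 4 CPM in both arms.

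Over the 4 conditions, ZFP36L1 in the T arm at 0 h was 119 ± 7.83 CPM in siCTU2, 198 ± 16.8 in pQ, 243 ± 13.3 in siGL2 and 325 ± 86 in mQ (mean ± SD, n = 3). No neighbours in that order overlapped. ZFP36L2 was 76.9 ± 20.2 CPM in mQ, 114 ± 16.4 in siCTU2, 151 ± 10.8 in siGL2 and 153 ± 0.464 in pQ. Here mQ overlapped with siCTU2 and siGL2 with pQ. The orders of the 2 members were thus different, and levels were not tested across the 2 experiments, which had separate controls.

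ZFP36, the founding member, which is induced by serum and inflammatory stimuli, was barely expressed in these cells. It had between 2 and 40 counts in the 24 libraries at 0 h, and 15 of all 72 libraries had none. At 0 h in the T arm it was at 2.74, 3.41 and 1.56 CPM in siCTU2, 1.27, 3.5 and 1.73 in siGL2, 0.371, 1.14 and 1.24 in mQ, and 1.07, 2.83 and 1.7 in pQ. The siRNA groups overlapped widely, and the mQ and pQ groups overlapped as well. The log2 change was 0.23 for siCTU2 (SE 0.467, adjusted p = 0.744) and -0.94 for mQ (SE 0.564, adjusted p = 0.244, edgeR), and a difference of this size was not detectable at this depth.

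The ratio of ZFP36L1 to ZFP36L2 counts within a library does not depend on how libraries are scaled. Since QuantSeq yields one tag per transcript end, counts were not divided by length; only differences of the ratio between libraries were read. At 0 h in the T arm the ratio was 0.971, 0.898 and 1.34 in siCTU2 and 1.53, 1.5 and 1.81 in siGL2. It was 3.66, 4.73 and 4.43 in mQ and 1.19, 1.29 and 1.41 in pQ. In neither pair did the groups overlap. The ratio was lower in siCTU2 by 0.61 on the log2 scale and higher in mQ by 1.71. At 3 h in the T arm the values for mQ were 1.47, 3.09 and 2.95, against 0.637, 0.614 and 1.09 for pQ, so that the difference was still there after transcription had been blocked (log2 difference 1.66). The groups did not overlap in 8 of the 12 comparisons over arms and times, which were all those at 0 and 3 h, and overlapped in all those at 5 h. With 3 libraries against 3, the two-sided exact permutation test cannot go below p = 0.1, which it gave in those 8 comparisons (0.15 after Benjamini-Hochberg adjustment over 12). Among the libraries with extra genes, the ratio was 1.63 in pQ TCHX at 0 h, below all mQ values, 1.52 in siCTU2 TCHX at 5 h, and 1.41 in mQ T at 5 h, where the other mQ libraries had 2.82 and 3.01 and the pQ libraries 0.914 to 2.04. Only in this last comparison did the overlap rest on such a library.

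**Figure D2:**
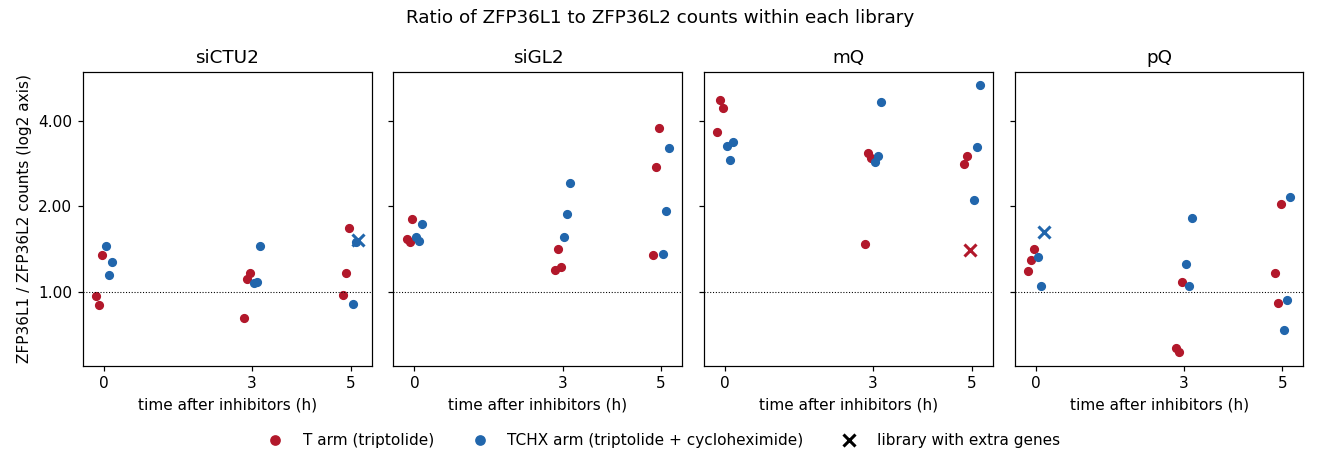
Ratio of ZFP36L1 to ZFP36L2 counts within each library (vertical axis, log2 scale) against hours after the inhibitors in the 4 conditions, T arm in red and TCHX arm in blue; crosses mark the libraries with extra genes and the dotted line a ratio of 1. At 0 h the mQ libraries of the T arm sit between 3.66 and 4.73 and the pQ libraries between 1.19 and 1.41; at 5 h the conditions overlap.

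The next question was how fast the members decayed. The total of a library is its sequencing depth and not an amount of RNA, so counts were scaled to genes whose share of the library rose over time (stable genes), and a normalised count is given relative to them. No member was among the stable genes. With triptolide alone, ZFP36L1 and ZFP36L2 were lost rapidly in all 4 conditions. The normalised count of ZFP36L1 fell from 2905, 3145 and 3091 at 0 h to 770, 1109 and 554 at 3 h in siGL2, and from 1595, 1481 and 1717 to 189, 414 and 247 in siCTU2. It fell from 3474, 3369 and 5838 to 234, 513 and 399 in mQ, and from 2362, 2756 and 2840 to 317, 410 and 245 in pQ. All libraries at 3 h were below all those at 0 h of their condition, so that on average 26.6% ± 8.67, 18.1% ± 8.66, 9.6% ± 4.86 and 12.3% ± 3.27 of the 0 h amount remained in siGL2, siCTU2, mQ and pQ (SD, n = 3).

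ZFP36L2 was lost as well. Its normalised count went from 1895, 2101 and 1704 to 644, 780 and 453 in siGL2, and from 1643, 1650 and 1278 to 233, 373 and 213 in siCTU2. It went from 950, 713 and 1318 to 159, 166 and 135 in mQ, and from 1990, 2134 and 2009 to 497, 667 and 225 in pQ. The times did not overlap in any condition, and 32.6% ± 5.43, 17.8% ± 4.35, 16.8% ± 6.49 and 22.5% ± 10.3 remained in siGL2, siCTU2, mQ and pQ, respectively.

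By edgeR, the log2 change from 0 to 3 h in the T arm was -2.50 in siCTU2 (SE 0.377), -1.91 in siGL2 (SE 0.36), -3.47 in mQ (SE 0.471) and -3.04 in pQ (SE 0.297) for ZFP36L1. It was -2.48 (SE 0.396), -1.60 (SE 0.488), -2.70 (SE 0.611) and -2.15 (SE 0.526) for ZFP36L2. All 8 changes were called, with adjusted p-values between 1.12e-06 and 0.0205. The medians over all genes were -0.55, -0.47, -0.71 and -0.69, and the share of genes called lower was 36% in siCTU2, 28.6% in siGL2, 55.4% in mQ and 55.2% in pQ. The changes of both members lay among the lowest 8.43% of genes in every condition. ZFP36 fell in siCTU2, mQ and pQ (log2 change -2.76, -3.96 and -3.15, adjusted p = 0.00149, 0.0224 and 0.0305, edgeR), but it had 0 to 11 counts in the T arm at 3 h. In siGL2 its change was -2.82 (adjusted p = 0.0576). None of the 3 calls of ZFP36 held in every fit: it was lost in siCTU2 without replicate 1 (adjusted p = 0.056) or 2 (0.0537), in mQ without replicate 2 (0.178) and with TMM scaling (0.175), and in pQ without replicate 1 (0.104) or 2 (0.179) and with TMM scaling (0.236). Without replicate 1, the calls of ZFP36L1 (-1.91, adjusted p = 0.0616) and ZFP36L2 (-1.63, adjusted p = 0.179) in siGL2 and of ZFP36L2 in pQ (-2.22, adjusted p = 0.0654) did not hold, nor did that of ZFP36L2 in siGL2 without replicate 2 (-1.71, adjusted p = 0.176).

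At 5 h in the T arm, ZFP36L1 was lower than at 0 h by a log2 change of -3.27 in siCTU2, -2.35 in siGL2, -3.24 in mQ and -3.36 in pQ, and ZFP36L2 by -3.41, -2.82, -1.91 and -3.13 (edgeR adjusted p between 1.2e-07 and 0.0153). In mQ, the call of ZFP36L2 was lost when replicate 1 (adjusted p = 0.148) or replicate 2 (0.178) was left out, and with TMM scaling (0.0724), and that of ZFP36L1 did not hold without replicate 2 (0.0599). The background of genes called lower was 63.4%, 47.4%, 43.8% and 51.8%. In mQ, the third replicate had normalised counts of 884 for ZFP36L1 and 628 for ZFP36L2, against 167 and 280, and 59.3 and 93, in the others. This was a library with extra genes, and without it the changes in mQ were -4.23 for ZFP36L1 and -3.69 for ZFP36L2 (adjusted p = 6.37e-08 and 4.7e-07). ZFP36 had 0 counts in all 3 pQ libraries at 5 h in the T arm, which allows up to 0.24, 0.298 and 0.416 CPM.

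With cycloheximide, more of both members remained. ZFP36L1 was at 1678, 2109 and 1812 normalised counts in siGL2 at 3 h in the TCHX arm, 759, 924 and 864 in siCTU2, 1919, 2324 and 2979 in mQ, and 1093, 1158 and 1361 in pQ. All were above the T arm libraries of the same condition, and 59.6%, 55.9%, 53.6% and 59% of the 0 h amount remained. ZFP36L2 was at 1071, 1123 and 752 in siGL2, 704, 851 and 597 in siCTU2, 671, 769 and 639 in mQ, and 872, 1103 and 750 in pQ. Only in siGL2 did the arms overlap, the lowest TCHX value being below the highest T value of 780, and 49.6%, 61.1%, 49.7% and 56.8% remained. In pQ, the share of replicate 3 was 89% for ZFP36L1 and 79.8% for ZFP36L2, against 43.7% to 46.4% in the others. The 0 h library of that replicate was one of those with extra genes, and without it the log2 changes from 0 to 3 h were -1.09 for ZFP36L1 and -1.27 for ZFP36L2.

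From 0 to 3 h in the TCHX arm, the only call among ZFP36L1 and ZFP36L2 was ZFP36L1 in pQ (log2 change -0.88, edgeR adjusted p = 0.02). It was lost when replicate 1 (-0.72, adjusted p = 0.244) or replicate 2 (-0.71, 0.192) was left out, and with TMM scaling (-0.28, 0.933). The other 7 changes were between -0.73 and -1.02, with adjusted p of 0.0987 to 0.238. The background of genes called lower was 3.04% in siCTU2, 18.3% in siGL2, 36.1% in mQ and 40.5% in pQ. In mQ, both changes passed without the library with extra genes (-0.89, adjusted p = 0.0141 for ZFP36L1, and -1.02, adjusted p = 0.00858 for ZFP36L2). With the replicate number as a block, the changes in siGL2 were -0.77 for ZFP36L1 (adjusted p = 0.0355) and -1.05 for ZFP36L2 (adjusted p = 0.0323), and that of ZFP36L2 in pQ was -0.84 (adjusted p = 0.025). In these groups same-numbered libraries deviated together, and all 3 then passed, in fits that called 4627 of 13161 genes lower in siGL2 and 7325 of 13347 in pQ. From 0 to 5 h in the TCHX arm, ZFP36L1 was lower in siCTU2 (-1.26, edgeR adjusted p = 0.021), siGL2 (-1.23, 0.0114), mQ (-1.73, 0.00535) and pQ (-1.53, 0.000823). ZFP36L2 changed by -1.29 (0.0235), -1.38 (0.0295), -1.68 (0.0234) and -1.22 (0.0696). Only the last did not pass, and each call was lost without replicate 1 or 2. Medians over all genes were -0.47, -0.70, -0.75 and -0.56. Genes called lower were 3079 of 13638 in siCTU2, 6175 of 13161 in siGL2 and 7223 of 13442 in mQ.

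**Figure D3:**
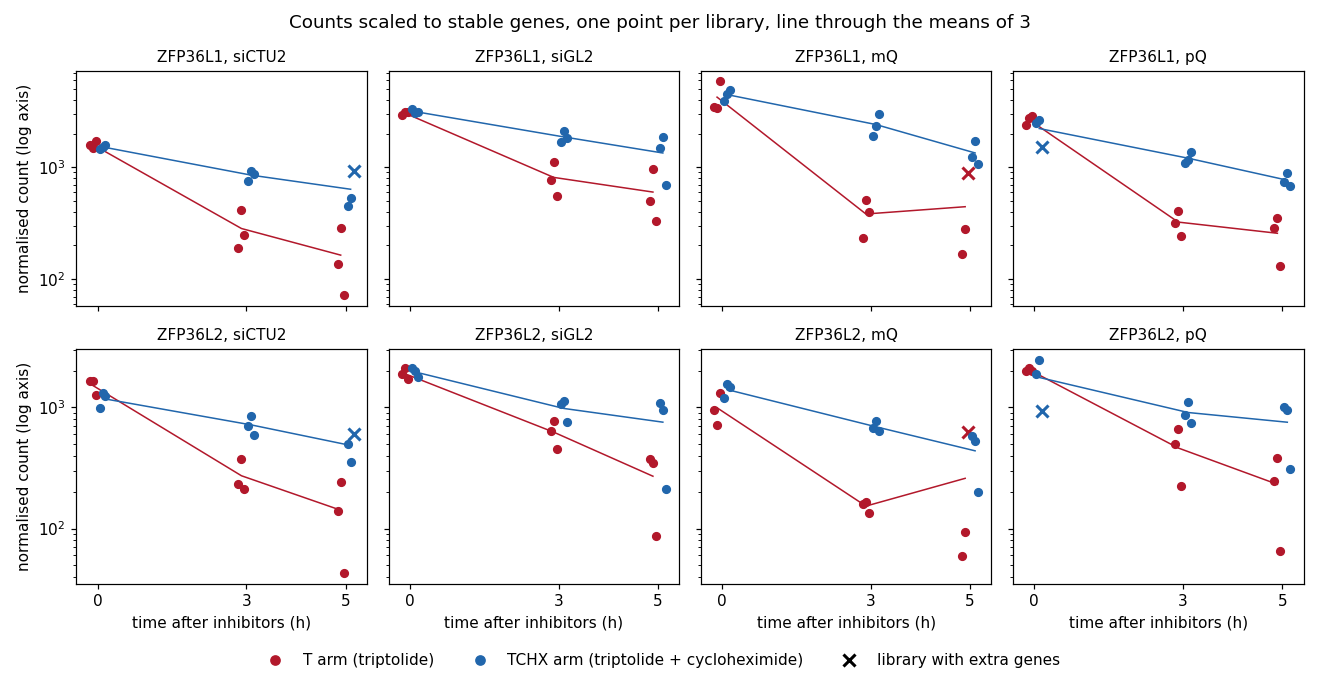
Normalised counts of ZFP36L1 (upper row) and ZFP36L2 (lower row) against hours after the inhibitors (log vertical axis) in the 4 conditions, with 1 point per library and lines through the means of 3, T arm in red and TCHX arm in blue; crosses mark the libraries with extra genes. ZFP36L1 of the T arm drops from 2905 to 3145 at 0 h to 554 to 1109 at 3 h in siGL2, and the TCHX arm stays at 1678 to 2109; in mQ at 5 h the crossed library of the T arm lies above the other two.

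The effect of cycloheximide was then tested as TCHX minus T at the same time. At 0 h, where both arms had just received their inhibitors, no member passed the test in any condition. The log2 differences of ZFP36L1 and ZFP36L2 were between -0.36 and 0.50 (adjusted p = 1), and 0% of genes were called by edgeR in each of the 4 conditions, while 160, 96, 311 and 287 genes had an unadjusted p under 0.05 and there were 0, 0, 2 and 1 calls by DESeq2 in siCTU2, siGL2, mQ and pQ.

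At 3 h, ZFP36L1 was higher with cycloheximide in all 4 conditions, and the difference was called in 3 of them. The log2 difference was 1.59 in siCTU2 (SE 0.367, edgeR adjusted p = 0.0176), 2.66 in mQ (SE 0.456, adjusted p = 0.022) and 1.90 in pQ (SE 0.286, adjusted p = 0.000631). In siGL2 it was 1.20 (SE 0.354, adjusted p = 0.081). The share of genes called higher was 4.31% in siCTU2, 3.44% in siGL2, 0.342% in mQ and 2.81% in pQ, and the medians over all genes were 0.13, 0.04, 0.16 and 0.05. ZFP36L1 was thus called in mQ, where 46 of 13442 genes were. That number rested on 1 library and on the tool, since 1491 of 13639 genes were called higher without the library with extra genes and 544 by DESeq2. ZFP36L2 was called higher in siCTU2 (1.40, SE 0.385, adjusted p = 0.0468). Its difference was 0.65 in siGL2 (adjusted p = 0.83), 2.18 in mQ (SE 0.6, adjusted p = 0.0919) and 0.98 in pQ (SE 0.511, adjusted p = 0.554). Without the libraries with extra genes, ZFP36L2 passed in mQ too (2.18, adjusted p = 8.14e-05). The replicate block brought the difference in pQ to 1.11 (adjusted p = 0.0427). In siCTU2, neither call held without replicate 1 (adjusted p = 0.471 for ZFP36L1 and 0.753 for ZFP36L2), and that of ZFP36L2 did not hold without replicate 2 (adjusted p = 0.135). In mQ, the call of ZFP36L1 did not hold without replicate 1 (adjusted p = 0.332) or replicate 2 (adjusted p = 0.693). In pQ the call of ZFP36L1 did not hold without replicate 1 (adjusted p = 0.0953). Without replicate 3, ZFP36L1 (1.01, edgeR adjusted p = 0.00252) and ZFP36L2 (0.63, adjusted p = 0.00188) passed in siGL2, where 727 of 13174 genes were called higher. ZFP36L2 then also passed in mQ (2.15, adjusted p = 1.01e-07) and pQ (0.77, adjusted p = 0.00389), with 1656 of 13418 genes called higher in mQ.

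At 5 h, the difference of ZFP36L1 was 1.95 in siCTU2 (edgeR adjusted p = 0.0011), 1.16 in siGL2 (adjusted p = 0.0465), 1.58 in mQ (adjusted p = 0.132) and 1.57 in pQ (adjusted p = 0.000991). That of ZFP36L2 was 1.77 in siCTU2 (adjusted p = 0.00348), 1.49 in siGL2 (adjusted p = 0.0686; 1.47 and 0.0126 with the replicate block), 0.74 in mQ (adjusted p = 0.531) and 1.70 in pQ (adjusted p = 0.0471). Without replicate 1, the calls of ZFP36L2 in siCTU2 (adjusted p = 0.114), of ZFP36L1 in siGL2 (0.583) and of ZFP36L1 and ZFP36L2 in pQ (0.0653 and 0.528) were lost. Without replicate 2, those of ZFP36L1 in siGL2 (0.0685) and ZFP36L2 in pQ (0.151) were lost. With the stable genes of both times, ZFP36L1 in siGL2 (0.265) and ZFP36L2 in pQ (0.0976) did not pass, and with the 0 h difference subtracted neither did (0.335 and 0.162). The background of genes called higher was 19.2% in siCTU2, 9.44% in siGL2, 0.193% in mQ and 9.88% in pQ. Libraries with extra genes entered the 5 h groups of siCTU2 and mQ. Without them the differences of ZFP36L1 and ZFP36L2 were 1.57 and 1.57 in siCTU2 (adjusted p = 0.00838 and 0.0182) and 2.58 and 2.52 in mQ (adjusted p = 3.11e-05 and 8.48e-05). In these fits 2183 of 13639 genes were called higher in mQ, so that the calls were less rare than with all libraries. ZFP36L2 passed in mQ at 5 h in no fit that kept the library, whereas ZFP36L1 also passed with it by DESeq2 (1.59, adjusted p = 0.0208), by TMM scaling (1.71, adjusted p = 0.0257), with the replicate block (1.80, adjusted p = 0.0376) and with no filter on low counts (adjusted p = 1.75e-10). In the third replicate of the T arm in mQ, PTPRC and CD3E were at 31.1 and 32.4 CPM, while LYZ was not raised. The part of any RNA from other cells in its 88.6 CPM of ZFP36L1 and 62.9 CPM of ZFP36L2 was not tested.

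**Figure D4:**
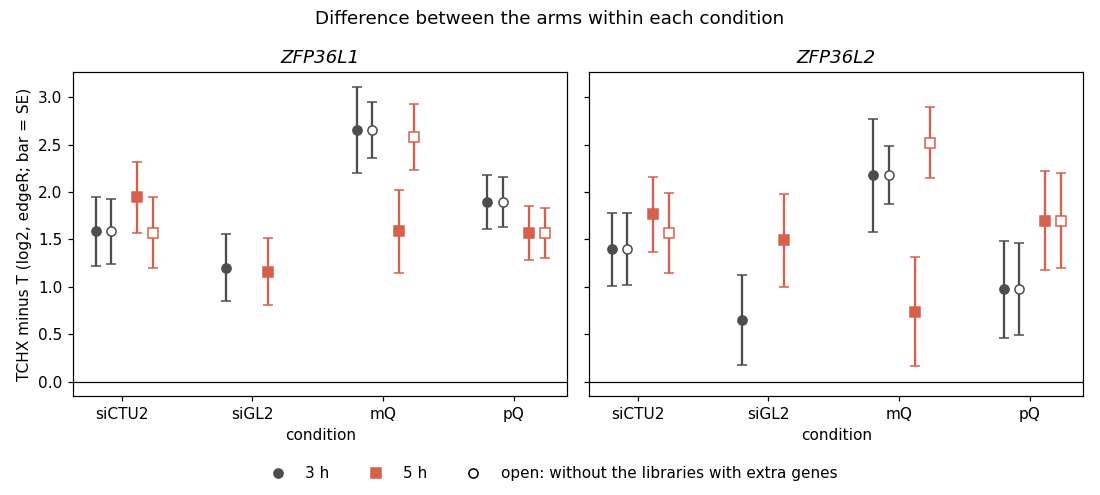
Log2 difference between the TCHX and T arms (vertical axis, edgeR estimate, bars are standard errors) of ZFP36L1 and ZFP36L2 in the 4 conditions at 3 h (circles) and 5 h (squares); filled symbols use all libraries and open symbols leave out those with extra genes, of which siGL2 had none. All estimates lie above 0, from 0.65 for ZFP36L2 in siGL2 at 3 h to 2.66 for ZFP36L1 in mQ at 3 h, and leaving out the library raises the 5 h estimates in mQ from 1.58 and 0.74 to 2.58 and 2.52.

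Whether the conditions differed in decay was tested directly, as an interaction over the 36 libraries of an experiment. For the fall from 0 to 3 h in the T arm, siCTU2 differed from siGL2 by -0.59 for ZFP36L1 (SE 0.531) and -0.88 for ZFP36L2 (SE 0.647), and mQ from pQ by -0.43 (SE 0.544) and -0.55 (SE 0.823). All 4 estimates were negative, and none passed (edgeR adjusted p = 1). In both experiments 0% of genes were called. An unadjusted p under 0.05 was reached by 414 and 356 genes, and there were 8 and 2 calls by DESeq2. Without replicate 3, 22 of 14180 genes in siCTU2 minus siGL2 and 283 of 14132 in mQ minus pQ were called.

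For the mean effect of cycloheximide over 3 and 5 h, siCTU2 minus siGL2 was 0.58 for ZFP36L1 (SE 0.377, adjusted p = 0.71) and 0.51 for ZFP36L2 (SE 0.461, adjusted p = 0.855), with 0.379% of genes called. For mQ minus pQ it was 0.39 for ZFP36L1 (SE 0.385, adjusted p = 1) and 0.12 for ZFP36L2 (SE 0.58, adjusted p = 1), with 0% called, 525 genes at an unadjusted p under 0.05 and 2 calls by DESeq2. The latter depended on replicate 3. Without the libraries with extra genes the differences were 0.89 for ZFP36L1 (adjusted p = 0.203) and 1.01 for ZFP36L2 (adjusted p = 0.451). Without all of replicate 3 they were 1.13 (adjusted p = 0.00461) and 1.30 (adjusted p = 0.000471), and both passed. In those fits 82 of 14491 and 301 of 14132 genes were called. For siCTU2 minus siGL2, the values without the library with extra genes were 0.40 and 0.41 (adjusted p = 0.979 and 0.991).

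The translation-dependent decay (TDD) index subtracts the normalised count of the T arm from that of the TCHX arm, divides by the 0 h count, and was defined by the study to measure how much of an mRNA's loss depends on translation. Averaged over 3 and 5 h, the index of ZFP36L1 was 0.291, 0.253 and 0.444 in siCTU2 and 0.305, 0.304 and 0.26 in siGL2, and 0.372, 0.413 and 0.257 in mQ and 0.253, 0.238 and 0.38 in pQ. That of ZFP36L2 was 0.315, 0.198 and 0.375 in siCTU2 and 0.287, 0.232 and 0.122 in siGL2, and 0.483, 0.459 and 0.0272 in mQ and 0.294, 0.215 and 0.262 in pQ. Each of these means was above 0, and the groups overlapped in all 4 comparisons. Before averaging, ZFP36L2 in mQ at 5 h was at -0.308 in replicate 3, whose T arm library was one with extra genes. The differences were 0.04 (SE 0.0666) and 0.08 (SE 0.0738) for siCTU2 minus siGL2, and 0.06 (SE 0.0683) and 0.07 (SE 0.132) for mQ minus pQ (adjusted p of 0.755 or more, linear regression on condition, time and replicate number for every gene). In both experiments 0% of genes were called, although 1003 and 595 had an unadjusted p under 0.05, and limma on the mean over times made 0 calls as well. Without the libraries with extra genes the differences for mQ minus pQ were 0.14 for ZFP36L1 and 0.20 for ZFP36L2 (adjusted p = 0.162 and 0.22), and those for siCTU2 minus siGL2 were -0.014 and 0.037 (adjusted p = 0.968 and 0.942).

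Genes whose group means followed the members most closely were named from 9482 or 9483 genes with a sufficient count, by Pearson's r of log2 values over the 12 group means of each experiment. These r describe means that share libraries and the fall with time, and they include the libraries with extra genes. The closest to ZFP36L1 were SPRY4, a feedback inhibitor of receptor tyrosine kinase signalling (r of 0.992 in the siRNA and 0.985 in the medium experiment), GCC1 (0.979 and 0.982) and TBC1D22B (0.976 and 0.981). For ZFP36L2 they were PPARGC1B, a transcriptional coactivator of mitochondrial genes (0.984 and 0.988), C1orf52 (0.991 and 0.978) and AMD1, which makes the decarboxylated S-adenosylmethionine needed for polyamine synthesis (0.978 and 0.98). For ZFP36 they were PSMC3IP (0.958 and 0.97), STXBP5 (0.952 and 0.958) and KLHL28 (0.952 and 0.952). ZFP36 itself fell short of the count asked of these genes. Its group means ran from 0 normalised counts in pQ (T arm, 5 h) to 34.4 in siCTU2 (T arm, 0 h). The r of ZFP36 therefore rest partly on libraries with few or no counts. The members were not each other's closest matches. ZFP36L2 ranked 721 for ZFP36L1 and ZFP36L1 ranked 1495 for ZFP36L2, with an r of 0.963 in the siRNA and 0.823 in the medium experiment.

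Genes that work with or under the family were described as 4 lists. At 0 h, of 30 tested mRNAs with AREs that are known or proposed targets, 18 were higher and 4 lower in siCTU2, with a median log2 change of 0.49 against 0.00 over all genes, of which 2194 were higher and 2235 lower out of 12292. The higher genes with the smallest p were CDKN1A, an inhibitor of cyclin-dependent kinases (log2 change 2.49), PLAUR, the urokinase receptor (1.61), and MCL1, which opposes apoptosis (0.91). The transcription factors MYC (-1.12) and IRF1 (-1.35), and TNFAIP3, an inhibitor of NF-κB signalling (-1.33), fell (edgeR adjusted p of 0.00132 or less for all 6). In mQ, 6 of 29 targets were higher and 4 lower, with a median of -0.17, where 24.8% of all genes were called. That share fell to 501 of 12609 genes without replicate 1. The angiogenic factor VEGFA (1.59), the ERK phosphatase DUSP6 (0.86) and the cyclin CCND1 (0.48) rose, and TNFAIP3 (-1.44), SNAI1 (-1.59) and MYC (-1.45) fell (edgeR adjusted p of 0.00953 or less). TNFAIP3 and MYC therefore fell in both comparisons.

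Of 31 tested factors of the decay machinery that ZFP36 proteins recruit, 4 were higher and 7 lower in siCTU2, and 6 higher and 4 lower in mQ, which lay near the shares over all genes (36% and 24.8%). Of the CCR4-NOT complex, the deadenylase CNOT6 (-0.91), the scaffold CNOT1 (-0.53) and CNOT2 (-0.45) fell in siCTU2, where the decapping enzyme DCP2 (0.58) rose. CNOT2 rose in mQ (0.45). The exosome subunit EXOSC6 rose in mQ (1.04), whereas EXOSC3 (-0.82), EXOSC4 (-0.60) and EXOSC10 (-0.56) fell (edgeR adjusted p of 0.016 or less). The medians were -0.03 and 0.05. Of 11 other ARE-binding proteins, 1 was higher and 3 lower in siCTU2, again near the 36% of all genes, and 0 were higher and 4 lower in mQ. The destabilising KHSRP (-0.83) fell in siCTU2, and in mQ the stabilising ELAVL1 (-0.70) and HNRNPD (-0.55), which encodes the ARE binder AUF1, fell, as did HNRNPAB (-1.26). Of 15 kinases, phosphatase subunits and 14-3-3 proteins that act on the family, 5 were higher and 3 lower in siCTU2, and 0 higher and 5 lower in mQ, against 36% and 24.8% of all genes in either direction. The 14-3-3 gene YWHAH rose in siCTU2 (0.75) and fell in mQ (-0.65), AKT1 fell in mQ (-1.15), and MAPK14, which encodes p38α, fell in siCTU2 (-0.44).

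The targets decayed quickly, as the members did. From 0 to 3 h in the T arm, 21 of 30 were lower in siCTU2, 18 of 30 in siGL2, 24 of 31 in mQ and 25 of 31 in pQ, against 36%, 28.6%, 55.4% and 55.2% of all genes, with medians of -1.52, -1.53, -2.23 and -2.05 against -0.55, -0.47, -0.71 and -0.69 over all genes. DUSP6 fell in each (log2 change -4.40, -6.19, -6.80 and -6.15). The decay machinery, with medians of -0.55, -0.49, -0.84 and -0.72, lay near all genes. With cycloheximide at 3 h, 7 targets were higher in siCTU2, 7 in siGL2, 2 in mQ and 7 in pQ, against 4.31%, 3.44%, 0.342% and 2.81% of all genes, and CDKN1A was lower in siGL2 (-0.67). DUSP6 was called in each condition (3.55, 4.74, 5.69 and 4.59). Of the decay machinery, the other ARE binders and the regulators of the family, only GIGYF2 in siCTU2 (0.69) was called at 3 h, and none in the other conditions.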

How the data were processed

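The authors trimmed the reads with fastp 0.20.1, aligned them with HISAT2 2.2.1 to GRCh38.p13 and counted reads per gene with HTSeq 0.13.5, and the deposited values are raw counts per gene. No molecular identifiers were stated, so floors (3 counts) cover counting error only. Groups came from the labels. The members and gene lists were chosen with earlier results of these data known. Counts were tested with edgeR 4.0.16 (quasi-likelihood test, filterByExpr, Benjamini-Hochberg adjustment over all genes tested, threshold 0.05) in R 4.3.3. Libraries at 0 h were scaled by TMM, in 1 fit per experiment. Time courses were fitted per condition (18 libraries), and interactions per experiment (36 libraries), with median-of-ratios size factors over stable genes (0 h CPM above 0.2 and later CPM at least 1.1 times that at 0 h, at 3 h or 5 h; 197 genes in the siRNA and 81 in the medium experiment). The TDD index was fitted, as in the study, by linear regression on condition, time and replicate number, for genes with a mean normalised count of at least 10 at 0 h. Both scripts were tested on simulated data. From each list, up to 3 called genes per direction with the smallest p were named; the like-pattern genes were the 3 with the highest lower r of both experiments, from genes with a mean normalised count of at least 50 (pseudocount 1). Libraries with the same replicate number share a code in their column headers across all conditions, arms and times. What the code stands for is not stated, and the main edgeR tests had no replicate term. Same-numbered replicates were taken as paired where every correlation of their deviations from the group means was over 0.1. This held in 14 of 26 pairs of groups (range -0.38 to 0.89). The rule did not ask whether libraries with other numbers correlated less. In pQ TCHX at 5 h and 0 h, replicate 1 had 0.370 with its own number and up to 0.396 with another. In siGL2 TCHX and T at 5 h, these were 0.672 and 0.647. The correlations were 0.107 to 0.309 for siCTU2 and siGL2 at 0 h, and -0.17 to 0.143 for mQ and pQ. DESeq2 1.42.0, limma 3.58.1, other scalings, no filter, the replicate block and left-out libraries were tried as alternatives. No pair of libraries was identical.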

Additional observations from a re-analysis of the deposited data

How the results depend on the processing

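Of 939 values of the members under the alternatives, 750 kept their direction and their side of the threshold, 65 lost and 97 gained a call in the same direction, and 27 reversed. Of 776 counts of called list genes, 645 stayed within 1.5 times. The fall of ZFP36L1 and ZFP36L2 in siCTU2 at 0 h held under every alternative run. Except where stated, the cause of a change was not tested. No T arm library at 0 h and no siGL2 library had extra genes, so leaving those out gave no new value there. ZFP36 had few counts, and at this depth its changes were poorly resolved.

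Leaving out one replicate gave ranges of -0.11 to 0.50 for ZFP36 in siCTU2 at 0 h, and of 0.60 to 0.90 for ZFP36L1 and -1.13 to -0.75 for ZFP36L2 in mQ at 0 h. From 0 to 3 h in the T arm they were -2.18 to -1.69 (ZFP36L1) and -1.71 to -1.49 (ZFP36L2) in siGL2 and -2.47 to -1.83 (ZFP36L2) in pQ. For cycloheximide at 3 h they were 1.44 to 1.89 and 1.31 to 1.55 in siCTU2, 1.01 to 1.40 and 0.61 to 0.73 in siGL2, 2.52 to 2.95 and 2.15 to 2.23 in mQ, and 1.64 to 2.13 and 0.77 to 1.17 in pQ, for ZFP36L1 and ZFP36L2. For the cycloheximide effect in mQ minus pQ they were 0.087 to 1.13 and -0.46 to 1.30, and for the TDD index -0.033 to 0.085 and -0.00317 to 0.14 in siCTU2 minus siGL2 and -0.00197 to 0.15 and -0.023 to 0.22 in mQ minus pQ.

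In the TCHX arm at 0 h, mQ minus pQ was -0.32 for ZFP36L2 (edgeR adjusted p = 0.404) and 0.86 for ZFP36, or 0.29 without pQ replicate 3, an alternative chosen after seeing the data. From 0 to 5 h in that arm, ZFP36L2 in pQ passed without the library with extra genes (-1.53, edgeR adjusted p = 0.0335) and with the replicate block (-1.25, 0.0034). With TMM scaling the calls of ZFP36L1 and ZFP36L2 there were lost in siCTU2 (0.127 and 0.115), siGL2 (0.123 and 0.156) and mQ (0.122 and 0.271). With the stable genes of both times (8 and 3 genes), the cycloheximide effect at 3 h was 1.52 (adjusted p = 0.0738) for ZFP36L1 and 1.34 (0.173) for ZFP36L2 in siCTU2, and 2.23 (0.0252) for ZFP36L2 in mQ. With the 0 h difference subtracted it was 1.66 (0.15) and 1.76 (0.146) in siCTU2, and 2.58 (0.577) for ZFP36L1 in mQ. TMM scaling gave -1.13 (0.0664) for ZFP36L2 from 0 to 3 h in siGL2, and 1.16 (0.0164) for the cycloheximide effect on ZFP36L1 there. That effect was 1.20 without a filter (0.000701), by DESeq2 (0.0219) and without the replicate 3 libraries at 5 h (5.92e-05, chosen after seeing the data), as was 0.65 (0.00602) for ZFP36L2. For ZFP36L2 in mQ it was 2.18 without a filter (1.61e-13), by DESeq2 (0.0291), without the libraries with extra genes (8.14e-05) and without replicate 3 at 5 h (1.38e-08), and in pQ 0.97 without a filter (0.00168).

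The replicate block gave 1.26 (adjusted p = 0.0116) for the cycloheximide effect on ZFP36L1 in siGL2 at 3 h, where same-numbered libraries were not paired by the correlations (0.0893 to 0.499), 1.11 (0.0427) for ZFP36L2 in pQ, and -0.0063 for the difference of that effect on ZFP36L2 in mQ minus pQ. At 0 h it changed no call. The TDD difference of ZFP36L1 was -0.014 in siCTU2 minus siGL2 without the libraries with extra genes, and with each arm divided by its own 0 h library it was -0.038 for ZFP36L1, -0.11 for ZFP36L2 and -0.11 for ZFP36 in mQ minus pQ.

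ZFP36, on few counts, kept its sign in some tests when 1 replicate was left out and changed it in others. Its falls in the T arm within each condition stayed negative. Its cycloheximide effect at 3 h in siCTU2 was 1.78 (edgeR adjusted p = 0.0941), and ran from 1.32 to 2.50. It passed without replicate 3 (0.0489) and by DESeq2 (0.0355), where 704 of 13619 and 988 of 13638 genes were called higher. At 5 h the effect ran from 3.54 to 4.64 in pQ, -4.84 to -2.68 in mQ and 0.11 to 3.31 in siGL2. ZFP36 changed sign in the following differences between arms and conditions. Its cycloheximide effect ran from -0.71 to 0.49 in siCTU2 at 5 h (-0.24 by TMM), and at 3 h from -0.37 to 2.90 in siGL2, from -0.28 to 3.75 in mQ and from -3.002 to 0.73 in pQ (0.51 with the 0 h difference subtracted; 0.49 without replicate 3). In siCTU2 minus siGL2 it ran from -1.31 to 1.04, and the fall to 3 h from -0.36 to 2.08. In mQ minus pQ the cycloheximide effect at 3 h only was 3.12, and the TDD index ran from -0.13 to 0.14. From 0 to 3 h in the TCHX arm ZFP36 was called in no condition. In pQ it was at -2.63 (edgeR adjusted p = 0.0782), or -3.21 without the library with extra genes (0.0356). From 0 to 5 h it was called in siCTU2 (-2.60, 0.00497), siGL2 (-3.42, 0.0176) and mQ (-6.01, 0.00408), on 0 to 10 counts. Those calls were lost without replicate 2 (0.14, 0.121 and 0.0722). In pQ it was at -2.75 (0.0792), or -3.32 without that library (0.036).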
